A study of Mus spretus with 19 samples.

Results

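The cytochromes P450 of families 2 and 3 were followed in the livers of wild mice from 5 sites. Every array probe whose gene symbol belongs to the Cyp2 or Cyp3 family was taken, and a gene counted as a member when the scanner software had marked a probe as well above background on 3 or more of the arrays of any site. The array carries 62 such probes for 41 symbols. Of these, 55 probes for 40 genes were kept, among 16346 genes measured in all. Cyp2g1 was the symbol that did not pass. Each member is represented by its brightest kept probe, and 13 members have more than 1 kept probe.

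Livers came from male Algerian mice (Mus spretus), caught in the wild and not treated, with no genetic change. SOL is the Santa Olalla lagoon, labelled unpolluted. PS, the phosphogypsum stacks, and the lower (DR1), medium (DR4) and upper (DR6) course of the Domingo Rubio stream are labelled polluted. RNA of 9 livers was pooled for each site, and the pool was labelled for 4 arrays, of which DR6 has 3. The repeats are therefore technical. The tests compare a difference with the spread of labelling and hybridization and say nothing of the spread between mice. With 1 pool per site, polluted and unpolluted sites as classes have no test here. The arrays of a site shared 1 slide and 1 scan, so site and slide cannot be told apart.

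Enzymes of these families sit in the endoplasmic reticulum of hepatocytes and oxidize drugs, pollutants, steroids and fatty acids with electrons from Por, the P450 reductase. The nuclear receptors CAR (Nr1i3) and PXR (Nr1i2) respond to foreign compounds, by binding them or through signalling, and switch on Cyp2b, Cyp2c and Cyp3a genes. Cyp2b10 is the standard marker of CAR activation in mouse liver and Cyp2c37 is another of its targets. In laboratory mice several members, among them Cyp2b9, Cyp2b13, Cyp3a41 and Cyp3a44, are expressed more in females under the control of growth hormone. Those named are examples. The members were not sorted by sex bias, so the examples do not stand for all sex-biased members.

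Levels below are log2 signals relative to the 75th percentile of the array, so a level of 0 is the signal of that percentile. They compare arrays for the same probe and never genes with each other. A change was called when limma's moderated test over all 19 arrays, two-sided, gave a Benjamini-Hochberg adjusted p under 0.05 over all genes and a change of at least 2-fold, which is 1 on the log2 scale. The brightest probes of Cyp2a4 and Cyp3a41 were saturated on all 19 arrays, so no fold is given for them. A dimmer Cyp2a4 probe, unsaturated at SOL and DR1, read 7.99 to 8.30 and 7.73 to 7.93 there, a change of -0.29 that was not called. At PS and DR6, where this probe was saturated on all arrays, it read 8.36 to 8.53 and 8.71 to 8.87, above all SOL arrays. The DR4 arrays, partly saturated, read 8.24 to 8.43. Another 8 members were saturated on 1 to 17 arrays. Of the hepatocyte markers checked against the tissue label, 15 of 15 were well above background at each site. Exocrine pancreas markers were also above background everywhere, 14 of 14 at each site. In RNA of whole liver, fewer cells of a type and less RNA per cell cannot be told apart.

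Most members stayed within 2-fold of SOL. Of the 40, 33 were called at no site, and 17 had changes under 0.5 on the log2 scale at all 4 sites, Cyp3a41 being counted by its saturated signals. At PS 2 members were called, both lower, against 4.42% of all genes (2.23% higher and 2.18% lower). At DR1 1 member was called, lower, against 6.08% of all genes (3.53% higher and 2.55% lower). At DR4 1 member was called, higher, against 10.5% (5.43% higher and 5.1% lower). At DR6 6 members were called, 1 higher and 5 lower, against 6.95% (4.67% higher and 2.28% lower). All 4 comparisons share the SOL arrays. At an unadjusted p under 0.05 the counts were larger, with 8 members higher and 16 lower at PS, 10 and 17 at DR1, 8 and 22 at DR4 and 7 and 18 at DR6. Of all genes, 21.1% were higher and 21.6% lower at PS by that threshold, 27.6% and 26.3% at DR1, 26.2% and 33.6% at DR4 and 24.1% and 26.9% at DR6. The balance of members at DR4 depended on the scaling, with 12 higher and 11 lower under quantile scaling and 9 and 11 under normexp background.

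The members called in these comparisons were Cyp2b10, Cyp2b13, Cyp2c37, Cyp2c44, Cyp2c55, Cyp2c66 and Cyp2j9. The median change of the 40 members was -0.18 at PS, -0.08 at DR1, -0.20 at DR4 and -0.14 at DR6 on the log2 scale. Over all genes the medians were -0.0078, 0.0095, -0.05 and -0.0038. These medians depended on the processing. Under quantile scaling those of the members were -0.077, -0.027, 0.012 and -0.13 at PS, DR1, DR4 and DR6. Under normexp background the DR4 median was -0.015 for members and -0.013 for all genes. Counted by probe, 3 of the 55 kept probes were called at PS, 5 at DR1, 5 at DR4 and 9 at DR6, where 4.11%, 6.21%, 10.7% and 6.82% of all kept probes were called. DR6 had the lowest site mean for 16 of the 40 members, and was the lowest site for 20.0% of all genes. It was also the highest site for 11 members, and for 22.0% of all genes.

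**Figure D1:**
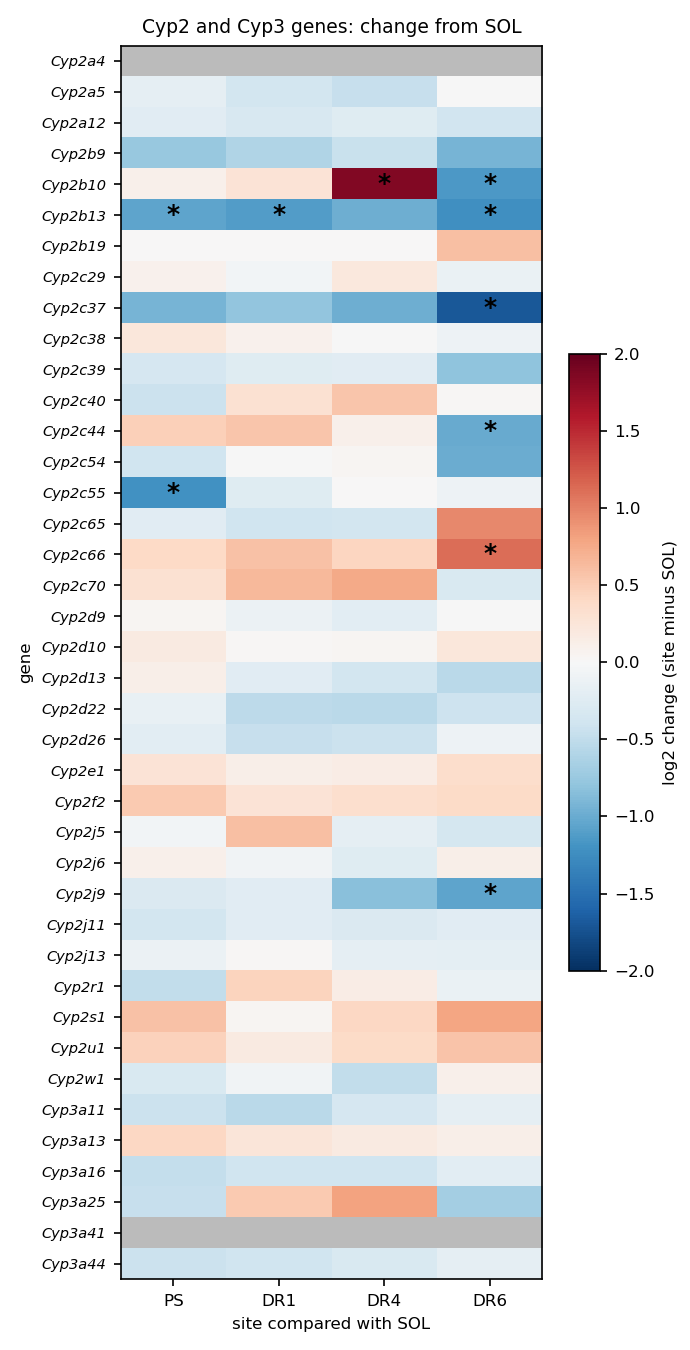
Log2 change of each of the 40 members (vertical axis) at PS, DR1, DR4 and DR6 relative to SOL (horizontal axis); colour runs from -2 (blue) to 2 (red), an asterisk marks a called change, and grey marks the 2 members saturated on all arrays. Called changes are few: Cyp2b10 is higher at DR4 and lower at DR6. Cyp2b13 is called lower at 3 sites, and the other called members are called at 1 site each. Cyp2b13 at DR4, Cyp2c37 at PS, DR1 and DR4 and Cyp2j9 at DR4 are also below SOL, by under 2-fold.

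The probe sequences show which transcripts a value can stand for, since members of a subfamily are close copies of each other. They were read from the deposited scanner files, with positions in the mouse build mm8, and all were designed on Mus musculus. Of the 40 probes used for the members, 12 list more than 1 RefSeq transcript. The Cyp2b13 probe used for the gene crosses a splice junction at chr7:25797498-25804454, plus strand. It lists transcripts of Cyp2b13, Cyp2b9 and Cyp2b10. It lies over the part of the message that codes for the heme-binding loop, and capitals mark the codon of the cysteine that holds the heme iron. The other Cyp2b13 probe, at chr7:25804646-25804705, plus strand, lists the Cyp2b13 transcript alone, and its first 30 bases are given.
Cyp2b13, probe listing 3 transcripts: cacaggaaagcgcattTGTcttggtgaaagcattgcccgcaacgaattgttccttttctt
Cyp2b13, probe listing 1 transcript: agagctgctggaaactagactgtatgttgc

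Cyp2b9 likewise has a probe at chr7:25919348-25919407, plus strand, that also lists Cyp2b10, shown by its first 30 bases, and a probe at chr7:25907225-25907284, plus strand, that lists Cyp2b9 alone.
Cyp2b9, probe listing 2 transcripts: taaggtctgatttctatgtctacagacttg
Cyp2b9, probe listing 1 transcript: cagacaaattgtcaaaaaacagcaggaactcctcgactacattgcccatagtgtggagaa

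For Cyp2b10 the probe at chr7:25625797-25625856, plus strand, lists 2 transcripts that both carry the symbol Cyp2b10. The other probe crosses a junction at chr7:25626158-25634828, plus strand, and lists 1 of them.
Cyp2b10, probe listing 2 transcripts: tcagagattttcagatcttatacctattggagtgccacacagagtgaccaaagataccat
Cyp2b10, junction probe: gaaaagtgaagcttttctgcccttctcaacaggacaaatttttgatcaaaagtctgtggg

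By the brightest probe of each gene, Cyp2b10 had the widest range of site means among the 38 members not saturated throughout, 8.02-fold. The Cyp2b13 probe that lists 1 transcript spanned 16.6-fold. The Cyp2b10 levels at SOL, on its brightest probe, were 0.33, 0.34, 0.40 and 0.33. At PS they were 0.41, 0.49, 0.59 and 0.34, and at DR1 0.51, 0.45, 0.85 and 0.67. The arrays of DR4 gave 2.16, 2.21, 2.24 and 2.20, and those of DR6 gave -0.65, -0.90 and -0.86. All DR4 arrays lay above, and all DR6 arrays below, every array of the other sites. The rise at DR4 was 3.61-fold (log2 change 1.85, SE 0.08, limma adjusted p 7.01e-12). The fall at DR6 was to 45.0% of the SOL signal (log2 change -1.15, SE 0.09, limma adjusted p 2.06e-08). At PS and DR1 the changes of 0.11 and 0.27 were not called.

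The junction probe of Cyp2b10 gave the same order of DR4 and DR6 with smaller steps. Its DR4 arrays read 1.55, 1.66, 1.69 and 1.79 and its SOL arrays 0.59, 0.36, 0.31 and 0.48, without overlap. The rise at DR4 on this probe was called at 1.24 (SE 0.10, limma adjusted p 1.73e-08 over all probes). At DR6 the probe read -0.27, -0.16 and -0.04, below all SOL arrays, but its change of -0.59 was under 2-fold, so the call at DR6 rests on the brighter probe. That call was also lost when background was estimated by normexp, at -0.78, and when both probes were averaged.

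Cyp2b13, a gene that is female-biased in laboratory mice, had its lowest levels at the polluted sites. On the probe shared with Cyp2b9 and Cyp2b10 its SOL arrays read 3.62, 3.57, 3.56 and 3.34. The PS arrays read 2.47, 2.48, 2.51 and 2.41, and the DR1 arrays 2.34, 2.29, 2.49 and 2.50. At DR4 they read 2.55, 2.56, 2.61 and 2.45, and at DR6 2.47, 2.12 and 2.30. No array of a polluted site reached the lowest SOL array, and the 4 polluted sites lay close together. The log2 changes were -1.05 at PS, -1.12 at DR1 and -1.23 at DR6, all called with limma adjusted p of at most 1.81e-08. The change of -0.98 at DR4 missed the 2-fold limit, and it passed without SOL replicate 4 (-1.04) or without DR4 replicate 3. The call at PS was lost under normexp background, at -0.90, and under median scaling.

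The probe that lists Cyp2b13 alone showed larger differences and another order of sites. Its SOL arrays read 1.83, 1.75, 1.70 and 1.74. At PS it read -1.29, -1.27, -1.18 and -1.45, and at DR1 -0.91, -0.84, -1.12 and -0.73. At DR4 it read -2.10, -2.30, -2.39 and -2.40, and at DR6 -0.21, -0.24 and -0.29. The 5 sites did not overlap on this probe, with SOL highest and DR4 lowest. The signal fell 8.29-fold at PS, 6.29-fold at DR1, 16.6-fold at DR4 and 4.00-fold at DR6 (log2 changes of -3.05, -2.65 and -4.05 at the first 3, SE 0.08 to 0.09). All 4 were called (limma adjusted p at most 3.83e-11 over all probes). All arrays were well above background on this probe at each site.

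Cyp2b9, also female-biased in laboratory mice, had smaller changes on both probes. On the shared probe the SOL arrays read 5.29, 5.13, 5.10 and 5.04, above all arrays of the polluted sites, which ran from 4.11 to 4.90. The changes were -0.76 at PS, -0.60 at DR1, -0.45 at DR4 and -0.94 at DR6, none of them called. Under median scaling the DR6 change was -1.02 and called. On its own probe the SOL arrays read 1.13, 0.92, 1.13 and 0.98 and all arrays of the polluted sites between -0.17 and 0.47. There the changes were -0.70 at PS, -1.01 at DR1, -1.02 at DR4 and -1.01 at DR6. The last 3 were called, just past 2-fold (SE 0.10 to 0.11, limma adjusted p at most 1.51e-06 over all probes). The chromosome 7 member Cyp2b19, a skin enzyme, was near background and was not called at any site.

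Cyp3a44 gave the same kind of contrast on chromosome 5. The probe used for the gene, at chr5:146078612-146078671, minus strand, lists 2 transcripts, and its changes from SOL ran from -0.43 to -0.18, not called. The other probe, at chr5:146078375-146078434, minus strand, lists 1 transcript and is shown by its first 30 bases.
Cyp3a44, probe listing 2 transcripts: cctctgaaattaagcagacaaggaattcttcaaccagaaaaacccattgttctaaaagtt
Cyp3a44, probe listing 1 transcript: cactgagctttctcagtgtctgtgcaagtt
On the latter the SOL arrays read 4.99, 5.15, 4.90 and 5.08. The DR1 arrays read 3.74, 4.27, 3.59 and 3.85 and the DR4 arrays 3.75, 3.62, 3.63 and 3.84, all below SOL. The falls were 2.25-fold at DR1 and 2.50-fold at DR4 (log2 changes -1.17 and -1.32, SE 0.12, limma adjusted p at most 5.54e-07 over all probes). PS at -0.71 and DR6 at -0.51 were not called.

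**Figure D2:**
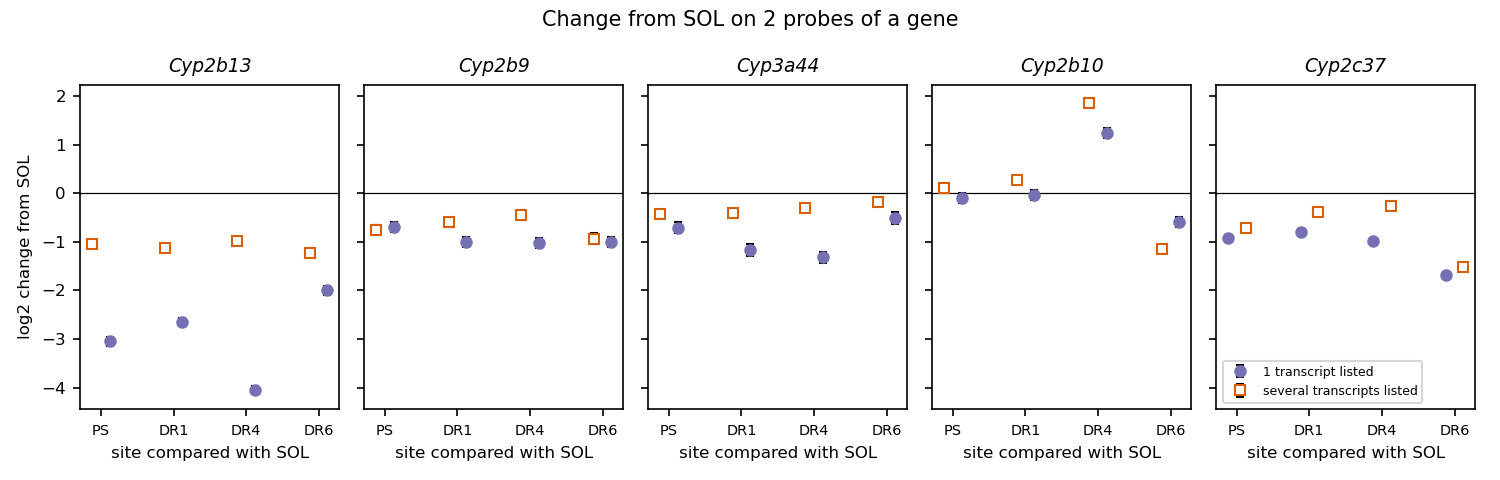
Log2 change from SOL (vertical axis) at each polluted site (horizontal axis) on both kept probes of Cyp2b13, Cyp2b9, Cyp3a44, Cyp2b10 and Cyp2c37; filled circles are probes that list 1 RefSeq transcript, open squares probes that list more, and bars are the SE of the fit. Both probes of Cyp2b13 are below 0 at every site, but the probe listing 1 transcript reaches -4.05 at DR4 where the shared probe is at -0.98.

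Sex-biased liver genes and the growth hormone axis outside the 2 families were measured by 27 genes. Of these 3 were called higher and 2 lower at PS, where 2.23% and 2.18% of all genes were, and 8 and 3 at DR1 (3.53% and 2.55%). At DR4 9 were higher and 4 lower (5.43% and 5.1%), and at DR6 5 and 1 (4.67% and 2.28%). Hao3, a female-biased oxidase, fell by 2.19, 1.74, 1.73 and 1.36 on the log2 scale at PS, DR1, DR4 and DR6, called at each site. The male-biased Mup5, a urinary protein, rose by 2.64, 3.23, 3.28 and 2.03. The summed scaled signal of 23 of these genes ran from 682 to 711 on the SOL arrays and from 1051 to 1463 on the arrays of the polluted sites. Neither the counts nor this sum was split by the direction of sex bias, and Hao3 and Mup5 do not stand for the other called genes. Whether pools differed in sex was checked on genes chosen after their values were seen. Of 4 Xist probes, 3 were well above background on no array and the fourth on 1 of 19, while the probes of Ddx3y, Eif2s3y and Jarid1d were so on all 19. The part of the growth hormone axis in the Cyp2b and Cyp3a44 differences was not tested.

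The Cyp2c subfamily had 11 members, on chromosome 19. In the mouse these enzymes convert arachidonic acid, retinoids and drugs. Cyp2c37 makes hydroxylated products of arachidonic acid. Its probes stand at chr19:40065288-40065347 (first 30 bases given) and chr19:40055260-40055319, both on the plus strand, and the latter lists another transcript besides Cyp2c37.
Cyp2c37, probe listing 1 transcript: cacactggacacactgacttttatccagtt
Cyp2c37, probe listing 2 transcripts: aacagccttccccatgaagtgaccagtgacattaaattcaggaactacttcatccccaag

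On the former Cyp2c37 read 6.83, 6.67, 6.55 and 6.63 at SOL. It read 5.75, 5.74, 5.76 and 5.73 at PS, 5.78, 6.01, 5.85 and 5.86 at DR1, and 5.68, 5.65, 5.65 and 5.79 at DR4. At DR6 it read 4.96, 4.97 and 5.01. SOL was above and DR6 below all other arrays, with PS, DR1 and DR4 between them. The fall at DR6 was 3.22-fold (log2 change -1.69, SE 0.07, limma adjusted p 5.58e-12). The changes at PS (-0.92), DR1 (-0.79) and DR4 (-0.98) were under 2-fold and not called. Leaving out SOL replicate 3 or DR4 replicate 4 took DR4 to -1.02 or -1.01 and past the limit.

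The other Cyp2c37 probe gave -0.71, -0.40, -0.27 and -1.53 at PS, DR1, DR4 and DR6. The fall at DR6 was called on it too (SE 0.07, limma adjusted p 2.74e-11 over all probes). Cyp2b10 and Cyp2c37 were thus both low at DR6, while at DR4 Cyp2b10 rose 3.61-fold and Cyp2c37 stood at -0.98.

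Cyp2c44, which makes epoxides of arachidonic acid, read 4.18, 4.30, 4.18 and 4.23 at SOL and 3.11, 3.27 and 3.27 at DR6, without overlap. Its fall at DR6 was 2.01-fold (log2 change -1.01, SE 0.06, limma adjusted p 8.45e-10). The call was lost without SOL replicate 2 (-0.98) or DR6 replicate 1 (-0.95), and under normexp background (-0.94). At PS it read 4.64 to 4.73 and at DR1 4.71 to 4.91, above all SOL arrays, with changes of 0.47 and 0.56 that were not called.

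Cyp2c55 was lower at PS. Its SOL arrays ran from -0.07 to 0.12 and its PS arrays read -1.15, -1.28, -1.26 and -1.16, while the 11 stream arrays lay between -0.44 and 0.07. The fall at PS was 2.32-fold (log2 change -1.21, SE 0.07, limma adjusted p 3.77e-10). Under normexp background the change was -0.75 and not called. In laboratory mice Cyp2c55 is known from intestine as well as from liver. At PS 5 of 11 intestinal markers and 14 of 14 exocrine pancreas markers were called lower, against 2.18% of all genes. The summed scaled signal of the intestinal markers was 66.1 to 79.0 on SOL arrays and 48.3 to 53.3 on PS arrays, and that of 12 pancreas markers 756 to 816 and 183 to 184. At DR4, where 6 intestinal and 14 of 14 pancreas markers were called lower, the change of Cyp2c55 was 0.01 (-0.09 under normexp background). The part of other organs' RNA in the Cyp2c55 difference was not tested.

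Cyp2c66 and Cyp2c65, neighbours of Cyp2c55 known from gut, had their highest levels at DR6. Cyp2c66 read -2.67, -3.33, -3.33 and -3.26 at SOL and -2.13, -1.89 and -2.07 at DR6, without overlap. It rose 2.17-fold (log2 change 1.12, SE 0.15, limma adjusted p 1.28e-05). Cyp2c65 read -2.90, -2.85, -2.79 and -2.79 at SOL and -1.89, -1.88 and -1.87 at DR6. Its change of 0.96 was just under 2-fold and not called. All DR6 arrays of both genes lay above all arrays of the other sites. Both are dim, and under normexp background, which adds an offset of 50 to the signal, the Cyp2c66 change was 0.35 and not called.

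Part of the intestinal marker list was also called higher at DR6, while the summed signal of the list was lower than at SOL. Of 11 measured, 6 were called higher and none lower, with a median change of 1.27, where the rule called 4.67% of all genes higher. The 6 were Agr2 (1.95), Clca3 (2.49), Defa1 (2.13), Defcr6 (2.26), Guca2a (1.27) and Tff3 (1.83), which mark goblet, Paneth and other secretory cells. Vil1 and Fabp2, markers of absorptive cells named here after their values were seen, stood at -0.54 and -0.93, not called. The summed scaled signal of the list was 40.9 to 45.3 at DR6 and 66.1 to 79.0 at SOL. Of 13 such markers on the array, 2 were at background on all DR6 arrays. The part of gut RNA in the Cyp2c66 difference was not tested.

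Cyp2c54 shows how 1 array can decide a value. Its probe crosses a junction at chr19:40100940-40123521, minus strand, and its bases 1 to 46 match bases 15 to 60 of a Cyp2c40 probe at chr19:39840209-39855847, minus strand, except for 8 positions in capitals.
Cyp2c54: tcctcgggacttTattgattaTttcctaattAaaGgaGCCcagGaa
Cyp2c40: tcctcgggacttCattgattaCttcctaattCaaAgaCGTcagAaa
Cyp2c54 read 3.14, 5.03, 5.26 and 5.22 at SOL and 3.50, 3.71 and 3.80 at DR6. The groups overlap through SOL replicate 1. The change at DR6 was -0.998, just under 2-fold and not called (SE 0.37, limma adjusted p 0.0377). Without SOL replicate 1 it was -1.51 and called (limma adjusted p 4.25e-06). It was also called under median scaling (-1.08), quantile scaling (-1.02) and scaling to the 75th percentile of probes detected on all arrays (-1.03).

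Among the remaining Cyp2c members Cyp2c29, a main CAR target, Cyp2c38, Cyp2c39, Cyp2c40 and Cyp2c70 were not called at any site. The Cyp2c40 value at DR6 rests on replicate 1 alone, with replicates 2 and 3 left out as outlier spots. The probes of Cyp2c38 disagreed, at 0.09 and -0.01 at DR1 and DR4 on the probe used and -0.76 and -0.91 on the other. Cyp2c39, a retinoic acid hydroxylase, read 6.04 to 6.38 at SOL and 5.30, 5.43 and 5.60 at DR6. Cyp2c70, the enzyme that makes muricholic bile acids, read 6.63 to 6.95 at SOL, and 7.47, 7.59, 7.54 and 7.61 at DR4. Its changes were 0.31, 0.64, 0.75 and -0.31 at PS, DR1, DR4 and DR6. Under normexp background the DR4 change was 1.08 and called.

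**Figure D3:**
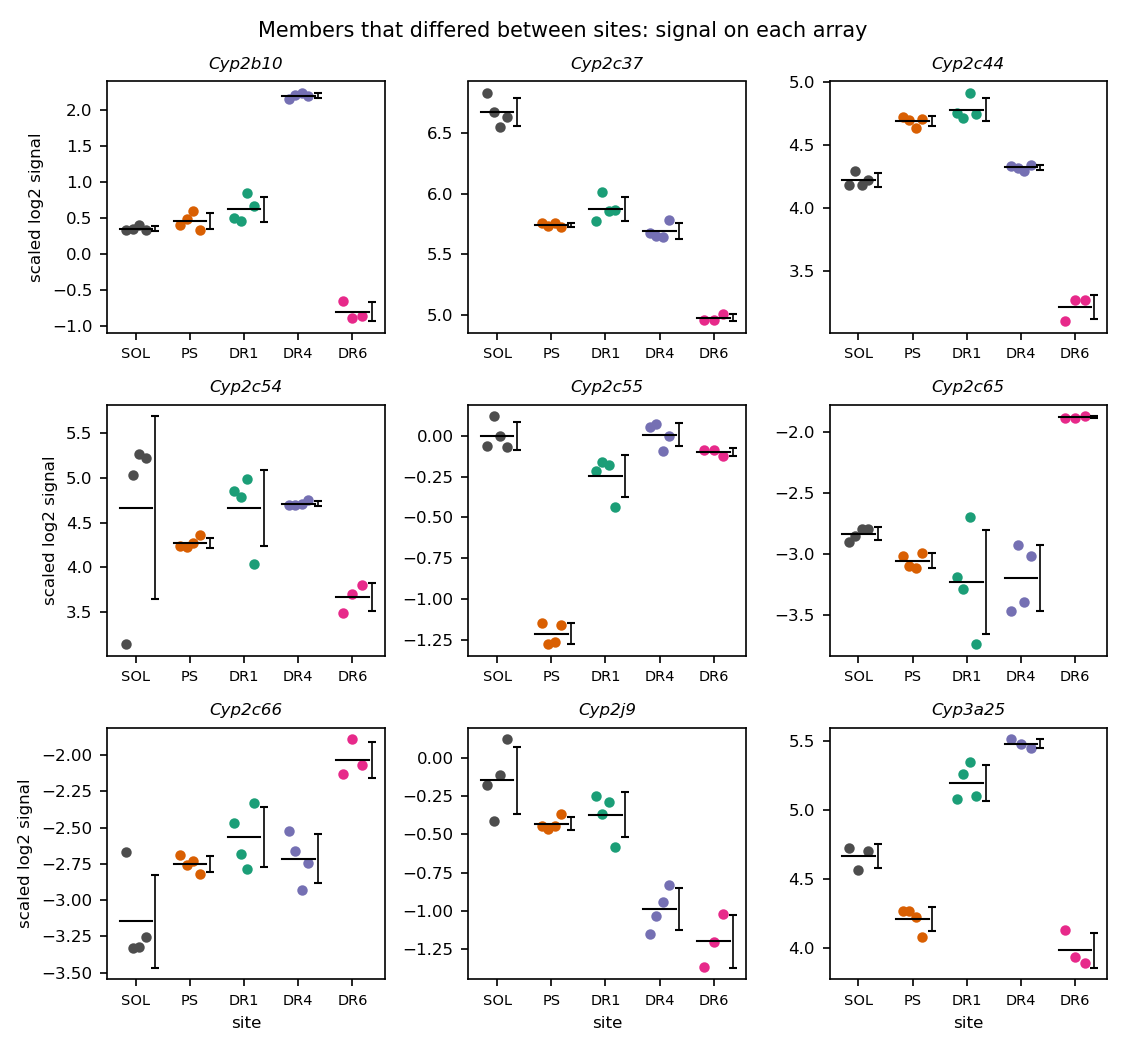
Scaled log2 signal of 9 members (vertical axes, a separate scale for each gene) on each array of the 5 sites (horizontal axis); points are arrays, horizontal lines site means and bars the SD of the site's arrays. Cyp2b10 stands high at DR4 and low at DR6, Cyp2c37 and Cyp2c44 are low at DR6, Cyp2c55 is low at PS, and SOL replicate 1 lies apart for Cyp2c54 and Cyp2c66.

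Of the 5 members on chromosome 4 from Cyp2j, a subfamily that oxidizes arachidonic acid, 1 was called. Cyp2j9 read -0.18, -0.41, -0.11 and 0.12 at SOL. At DR4 it read -1.15, -1.03, -0.94 and -0.83 and at DR6 -1.37, -1.21 and -1.02. Both stream sites lay below all SOL arrays. The fall at DR6 was 2.08-fold (log2 change -1.05, SE 0.12, limma adjusted p 1.70e-06), and -0.84 at DR4 was not called. The DR6 call was lost without SOL replicate 4 (-0.96), without DR6 replicate 1 (-0.97) and under normexp background (-0.74). Cyp2j5 read 5.91, 5.84, 5.97 and 5.72 at DR1 and 5.22 to 5.31 at SOL, without overlap, and its change of 0.60 was not called. The other Cyp2j5 probe also had 0.60 at DR1. Between DR1 and DR6 the gene differed by 0.95, not called. That difference was called with probes averaged (1.23) and under median scaling (1.05).

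Apart from Cyp2b9 on its own probe, described above, the widely studied members of liver had no called change from SOL. Cyp2e1, which oxidizes ethanol and acetaminophen, had changes from SOL of 0.28, 0.12, 0.15 and 0.35 at PS, DR1, DR4 and DR6. These rest on SOL replicate 1, at 6.40 where the other SOL arrays read 7.69 to 7.74. Without it they were -0.05, -0.21, -0.18 and 0.03. Cyp2c29 likewise read 5.81 on SOL replicate 1 and 7.62 to 7.90 on the others, and its changes of 0.08, -0.05, 0.20 and -0.14 became -0.40, -0.54, -0.28 and -0.62 without that array. None of these values was called.

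Cyp3a11, the main PXR target and drug-metabolizing P450 of mouse liver, read 8.43 to 8.91 at SOL and below every SOL array at PS, DR1 and DR4. Its changes were -0.42, -0.54, -0.34 and -0.17 at PS, DR1, DR4 and DR6, not called. The probe lists transcripts of Cyp3a11, Cyp3a41 and Cyp3a44 and was saturated on 5 arrays. Cyp2f2, which bioactivates naphthalene, read 7.47 to 7.59 on the 3 SOL arrays with a value, 1 being left out as an outlier spot. All other arrays were above, from 7.67 to 8.12, with changes of 0.52, 0.27, 0.33 and 0.38 that were not called.

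Cyp2a5, a coumarin hydroxylase, had changes of -0.18, -0.36, -0.47 and -0.01, with its probe saturated on 3 of the 4 DR1 arrays. Cyp2d9, a male-biased testosterone hydroxylase, stayed between -0.21 and 0.04. Its probe lists 4 transcripts. For Cyp3a13 the changes were 0.41, 0.25, 0.17 and 0.11, with an outlier spot left out on 1 SOL and 1 DR4 array. No value of these 3 genes was called.

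The 3 probes of Cyp2d22, another Cyp2d gene of chromosome 15, disagreed. On the brightest, SOL arrays read 4.71 to 4.79 and DR1 arrays 4.20 to 4.25, a change of -0.53 that was not called. A dimmer probe read -1.77 to -1.33 at SOL and -0.62 to -0.36 at DR1, and was called higher at 1.05 (SE 0.09, limma adjusted p 1.53e-07 over all probes). The remaining probe read 0.26 to 0.40 at SOL and -0.88 to -0.31 at DR1, at -0.95 and not called. No direction is therefore given for this gene at DR1.

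**Figure D4:**
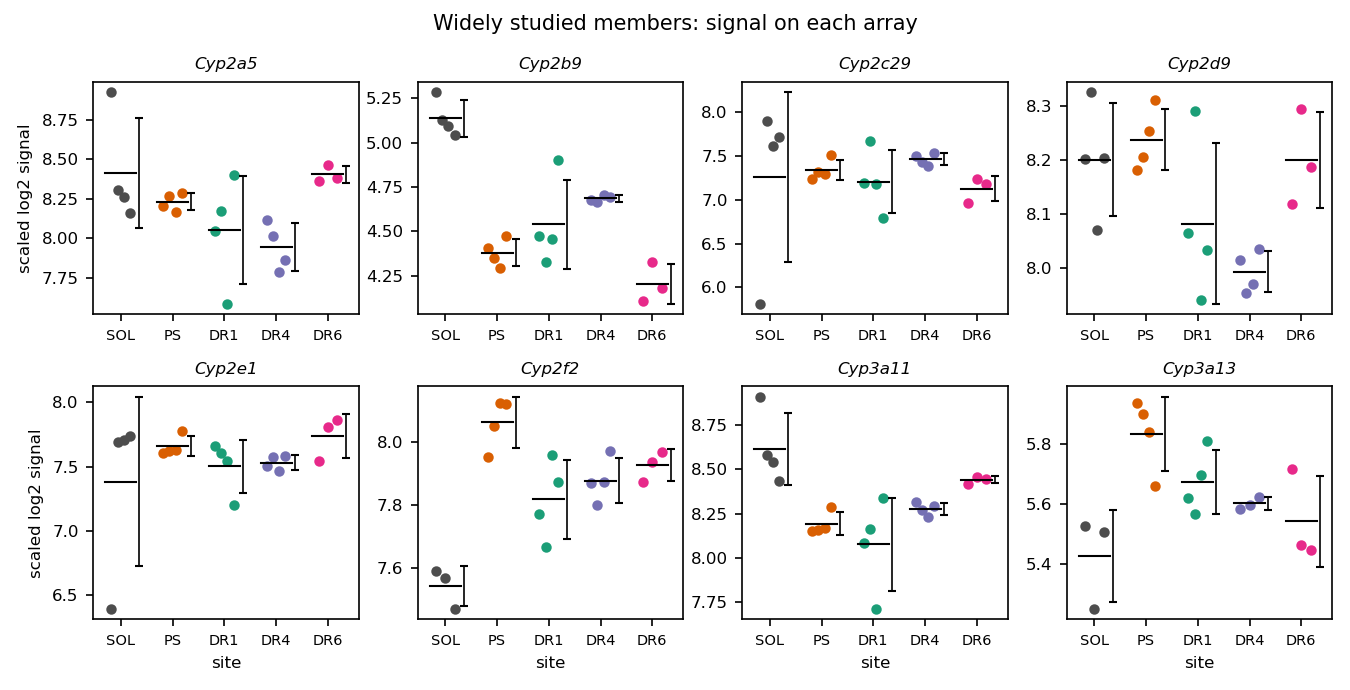
Scaled log2 signal of 8 widely studied members (vertical axes, a separate scale for each gene) on each array of the 5 sites (horizontal axis), with site means as lines and the SD of a site's arrays as bars. All 4 polluted sites lie below SOL for Cyp2b9 and above it for Cyp2f2, no site stands clear of SOL for Cyp2c29 and Cyp2e1, and SOL replicate 1 is far below the other SOL arrays for Cyp2c29 and Cyp2e1.

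The 3 stream sites also differed among themselves. Of the 40 members, 4 were called between DR1 and DR6, 3 higher and 1 lower at DR1, where 7.5% of all genes were called (3.26% higher and 4.24% lower). Between DR4 and DR6 6 were called, 5 higher and 1 lower at DR4, against 6.16% (2.39% higher and 3.78% lower). Between DR1 and DR4 1 was called, against 5.15% (3.05% higher and 2.1% lower), namely Cyp2b10, at 33.4% of the DR4 signal in DR1. Higher at DR4 than at DR6 were Cyp2b10, by 8.02-fold, and Cyp3a25, Cyp2c44, Cyp2c70 and Cyp2c54, by 2.82-fold, 2.15-fold, 2.09-fold and 2.06-fold. Cyp2c65 was lower at DR4, at 40.0% of the DR6 signal, a call lost under normexp background (-0.36 in place of -1.32). The Cyp2c54 call had a limma adjusted p of 0.03, and it was lost (adjusted p 0.0508 to 0.0899) whenever any of the 4 DR4 or 3 DR6 arrays was left out. Without SOL replicate 1, the array apart from the others for this gene, the call held at 1.04 (limma adjusted p 6.85e-05).

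Higher at DR1 than at DR6 were Cyp2c44, by 2.96-fold, Cyp2b10, by 2.68-fold, and Cyp3a25, by 2.32-fold, with Cyp2c65 lower, at 39.2%. The Cyp2b10 call was lost with both probes averaged (0.99) and on the junction probe (0.55), and that of Cyp2c65 under normexp background (-0.34). Cyp3a25 is a liver member of the Cyp3a cluster. It read 4.73, 4.57 and 4.70 at SOL, 4.27, 4.26, 4.23 and 4.08 at PS and 5.08, 5.26, 5.34 and 5.10 at DR1. It read 5.51, 5.48 and 5.45 at DR4 and 4.13, 3.93 and 3.89 at DR6. The 4th array of SOL and of DR4 was left out as an outlier spot. DR4 was above and DR6 below SOL without overlap, at 0.81 and -0.68, and neither change from SOL was called. The other Cyp3a25 probe had 0.70 and -0.57 there. Counted by probe, 6 of 55 were called between DR1 and DR6 (7.66% of all kept probes), 10 between DR4 and DR6 (6.13%) and 4 between DR1 and DR4 (4.92%).

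Over the 5 sites together, 10 of 40 members differed by limma's F test with a range of site means of at least 2-fold, against 23.1% of all genes. The 10 were the 7 called against SOL and Cyp2c65, Cyp2c70 and Cyp3a25. The range of site means had a median of 0.60 among members and 0.68 among all genes.

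The receptors and partners of these enzymes were mostly within 2-fold of SOL. Nr1i2 (PXR) changed by -0.83, -0.76, -1.38 and -0.33 at PS, DR1, DR4 and DR6 and was called lower at DR4. Nr1i3 (CAR) changed by 0.17, -0.10, -0.64 and -0.09 and was not called. Hnf4a, a hepatocyte regulator, changed by 0.19, 0.42, 0.58 and 0.27, not called. Of 29 measured receptors, partners and targets of CAR and PXR outside the Cyp2 and Cyp3 families, 3 were higher and 2 lower at PS (all genes 2.23% and 2.18%), 2 and 4 at DR1 (3.53% and 2.55%), 4 and 4 at DR4 (5.43% and 5.1%) and 4 and 5 at DR6 (4.67% and 2.28%). Their median changes were -0.15, -0.34, -0.45 and -0.33. At DR4, where Cyp2b10 rose, Gadd45b (2.16), a CAR-induced stress gene, Sult1d1 (1.57), Akr1b7 (1.44) and the coactivator Ppargc1a (1.32) were higher. The conjugating enzymes Ugt1a1 (-1.08) and Ugt2b34 (-1.74), the efflux pump Abcb1a (-1.62) and Nr1i2 were lower there. Akr1b7, an aldo-keto reductase, was called higher at all 4 sites.

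Of 16 genes of electron supply and heme synthesis, 5 were called lower at DR4 and none higher, where 5.1% of all genes were lower. The other 11 did not pass, and the median of the 16 was -0.60. The 5 were Cyb5 (-1.23), which carries electrons to P450, its relative Cyb5b (-1.05), and Alad (-1.15), Cpox (-1.18) and Uros (-1.10) of heme synthesis. At the other 3 sites none of the 16 was called, with medians of -0.15, -0.26 and -0.25. Alas1, the rate-limiting enzyme of heme synthesis, changed by 0.47, -0.33, -0.59 and -0.01. Por was partly saturated and changed by -0.17, -0.44 and -0.33 at PS, DR1 and DR4.

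Markers of the pericentral hepatocytes, where most of these P450 are expressed, included 5 of 19 called lower and 1 higher at DR4, where 5.1% of all genes were lower and 5.43% higher. The summed scaled signal of 18 of them was 896 to 1060 on SOL arrays, 679 to 697 on DR4 arrays and 812 to 846 on DR6 arrays. It was 849 to 892 at PS and 1021 to 1134 at DR1. Of 18 periportal markers, 3 were called higher and 1 lower at DR4 and 1 higher and 0 lower at DR6. Their summed signal was 1591 to 1699 on SOL arrays, 2005 to 2099.5 at DR4 and 2423 to 2466 at DR6. The part of either list in the changes of the members was not tested.

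Microsomal P450 of other families were also measured. Of 19 measured, 3 were higher and 1 lower at PS (all genes 2.23% and 2.18%), 5 and 0 at DR1 (3.53% and 2.55%), 5 and 0 at DR4 (5.43% and 5.1%) and 3 and 0 at DR6 (4.67% and 2.28%). Cyp1a1, the marker of the dioxin receptor, changed by 0.73, 1.28, 1.13 and 2.05, called at the 3 stream sites. Cyp8b1, which makes cholic acid, rose by 1.36, 1.68 and 2.37 at PS, DR4 and DR6. The male-biased Cyp4a12 rose at PS, DR1 and DR4, by 1.97 at PS and 2.63 at DR4. No test of the difference between the families was made.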

How the data were processed

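Liver RNA was hybridized to 19 one-colour Agilent mouse arrays. The deposited intensity values are background-subtracted, detrended spot signals from Agilent Feature Extraction 9.5.3.1, per the file headers and the submitters' processing notes, not scaled between arrays. Flags for background, saturation and outlier spots are those the authors deposited. Gene names come from the SOL files. The DR1 files, an earlier annotation of the design, name 5.84% of spots otherwise and hold the probe sequences.

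Signals were log2-transformed and expressed relative to the 75th percentile of gene spots, with outlier spots missing and spots of a probe averaged. Arrays correlated at 0.98 to 0.997 within a site and 0.952 to 0.984 between sites over 16003 genes. That percentile was a signal of 99.5 to 285.2, and the scanner software marked 52.0% to 61.5% of spots per array as clearly over background. Probes well above background on 3 arrays of a site were kept (23458), and the brightest stood for its gene. Sites were compared with limma 3.58.1 in R 4.3.3 over all arrays, with Benjamini-Hochberg adjustment. The number of arrays limits the precision. Code was tested on simulated data. Alternatives were other scalings, normexp background, filters, probe choices, the replicate block and leaving out each array.

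The members and gene lists were chosen with earlier results of these data known. Array values are given for Cyp2b10, Cyp2c37, members called at 2 or more sites, the 3 largest called rises and falls per site, and 8 widely studied members more briefly. Other members (Cyp2c38, Cyp2c39, Cyp2c54, Cyp2c65, Cyp2c70, Cyp2d22, Cyp2j5 and Cyp3a25) and second probes were given after their values were seen.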

Additional observations from a re-analysis of the deposited data

Results flagged for a closer look

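Of 71 groups of 4 arrays among 19 members, 6 held an array apart from the other 3 by Dixon's test at the 95% level, with the gap to the nearest other array at 0.867 to 0.967 of the group's range. Chance gives about 1 in 20. Replicate 1 of SOL was that array for 4 members. Cyp2c29 read 5.81 there and 7.62 to 7.90 on the others, Cyp2c54 3.14 and 5.03 to 5.26, and Cyp2e1 6.40 and 7.69 to 7.74. Cyp2c66 was higher there, at -2.67 against -3.33 to -3.26. Without that array the Cyp2c66 rise at DR6 was 1.28 (limma adjusted p 2.91e-07) and the Cyp2c54 change at DR6 was -1.51. Replicate 4 of PS read 7.77 for Cyp2e1, with the others at 7.61 to 7.63, and 8.29 for Cyp3a11, with the others at 8.15 to 8.17. The cause was not tested.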

How the results depend on the processing

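Of 21 called differences, 21 held under quantile scaling, the detected-probe percentile, the series table's values, a stricter filter, no filter and the replicate block, 20 under median scaling, 19 with probes averaged and 12 under normexp background. Median scaling gave 1 called member at PS and 7 between DR1 and DR6, and moved the share of higher calls among all genes at DR6 from 67.2% to 55.8%, between DR1 and DR6 from 43.5% to 55.4% and between DR4 and DR6 from 38.7% to 49.2%. Normexp gave 0 at PS by limma (8 higher and 14 lower at an unadjusted p under 0.05), 2 at DR4 and 2 at DR6. Averaged probes gave 2 at DR4. Probes listing 1 transcript, chosen after seeing the data, gave 3 at DR1, 4 at DR4 and 2 between DR1 and DR4, with Cyp2b10 at -0.10 at PS and -0.039 at DR1. Leaving out an array gave 1 to 2 at DR4. The cause was not tested.

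Signs turned for small changes. Under quantile scaling these were Cyp2a5 at DR6 (0.033), Cyp2c29 at DR1 (0.038), Cyp2d9 at DR1 (0.20), DR4 (0.094) and DR6 (0.0065), and Cyp3a11 at DR4 (0.013). Under normexp they were Cyp2c55 at DR4 (-0.095), Cyp2a5 at DR6 (0.010), Cyp2d9 at DR1 (0.094) and Cyp3a11 at DR4 (0.036). Cyp2d9 at DR6 was 0.00389 in the series table, 0.011 with averaged probes and 0.0055 with the replicate block. Leaving out an array gave -0.013 to 0.050 for Cyp2c55 at DR4 and -0.092 to 0.16 for Cyp2a5 at DR6. Cyp2c29 ran from -0.40 to 0.29 at PS, -0.54 to 0.16 at DR1, -0.28 to 0.42 at DR4 and -0.62 to 0.077 at DR6. Cyp2d9 ran from -0.0064 to 0.079 at PS and -0.048 to 0.042 at DR6, and Cyp2e1 from -0.054 to 0.39 at PS, -0.21 to 0.24 at DR1 and -0.18 to 0.27 at DR4.

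Replicate numbers are not known to pair arrays across sites. Of 36 same-number pairs 16 correlated over 0.1 (median 0.088, against -0.034 for other numbers), and 11 of 19 arrays were closest to their own number, a hint from the data and not from the design. Signals near background or saturated limit the dim and brightest members.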
